A study of Mus musculus with 12 samples.

Results

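The comparison described here is of oligodendrocyte-enriched cells labelled as lacking both RalA and RalB with oligodendrocyte-enriched cells of control mice. It covers 8 of the 12 libraries of the series. The cells were enriched, not pure, and genes of other cell types were also counted. The libraries were chosen by their labels alone: 4 control mice and 4 RalAB cKO mice, each contributing 1 library. Control mice carried CnpCre, a Cre recombinase driven from the Cnp locus of myelinating glia, and Rosa26-StopFlox-TdTomato, a red reporter that Cre switches on. RalAB cKO mice carried the same Cre and reporter together with RalAflox/flox and RalBflox/flox, so Cre and the reporter were shared by both groups. Spinal cords were taken from single mice at postnatal day 10 and dissociated with enzymes. Red cells with a large forward scatter were collected by flow cytometry, and their polyadenylated RNA was sequenced. The remaining 4 libraries, from mice lacking RalA alone, were left out of the tests.

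RalA and RalB belong to the Ras superfamily of small GTPases and switch between a resting form bound to GDP and an active form bound to GTP. In the active form they bind subunits of the exocyst, the complex that tethers secretory vesicles to the plasma membrane, and other effectors such as filamin A. Oligodendrocytes wrap axons with myelin, a stack of membrane rich in cholesterol and galactolipids, and the making of that membrane draws on both vesicle traffic and lipid synthesis.

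Gene totals of the 8 libraries lay between 10899821 and 15248528 estimated counts, and 12292 to 13165 genes were at 1 CPM or more (the counts-per-million unit, counts scaled to library size). Mitochondrially encoded genes made up 1.454% to 2.146% of control counts and 1.609% to 2.093% of RalAB cKO counts. Myelin protein genes held 13.4 ± 0.88% of control counts and 13.2 ± 0.533% in RalAB cKO (mean ± SD, n = 4 mice per group). On the first principal component, which held 49.5% of the variance, control libraries lay at -39.6 to -31.6 and RalAB cKO libraries at 13.1 to 53.2. RalAB cKO 1 was the mutant library nearest to control, both on this component and for 1358 (62.7%) of the genes that passed the test, and counts without it are given for the gene lists it changes most.

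**Figure D1:**
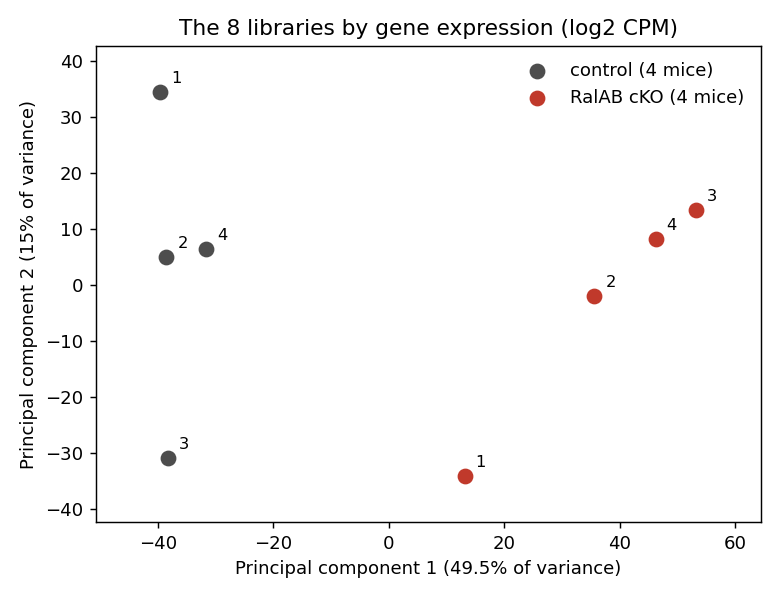
Position of each library on the first (x axis, 49.5% of variance) and second (y axis, 15% of variance) principal component of log2 CPM; each point is 1 mouse, numbered within its group. Control mice lie at the left (-39.6 to -31.6) and RalAB cKO mice at the right, with RalAB cKO 1 nearest to control at 13.1.

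Expression differed broadly between RalAB cKO and control. Of 13224 genes tested, 1115 rose in RalAB cKO (8.43% of tested genes) and 1051 fell (7.95%), together 2166 (16.4%), at an adjusted p under 0.05 in edgeR's quasi-likelihood test. At least 2-fold changes were found in 532 of the genes that rose and 496 of those that fell. The median absolute log2 change of all called genes was 0.95. Over all tested genes the median log2 fold change was -0.01. The 4 mutant and 4 control values did not overlap for 2559 genes (19.4%), 1831 of them called. Below, a gene is said to rise or fall only where it passed this test, differences are log2 fold changes of RalAB cKO over control ± their standard errors (n = 4 mice a group), and gene lists are read against the 8.43% and 7.95% of all genes. Without RalAB cKO 1 there were 1584 higher and 1570 lower genes, and without RalAB cKO 4 there were 761 and 643.

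Gene lists differed widely in how many of their members moved. Microglia, reactive phagocyte, lysosome and complement genes lay mostly on the higher side, and cholesterol, fatty acid, precursor, cell cycle, astrocyte and neuron genes mostly on the lower side. Lists of the exocyst, oxidative phosphorylation and unfolded protein response had 0 calls.

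**Figure D2:**
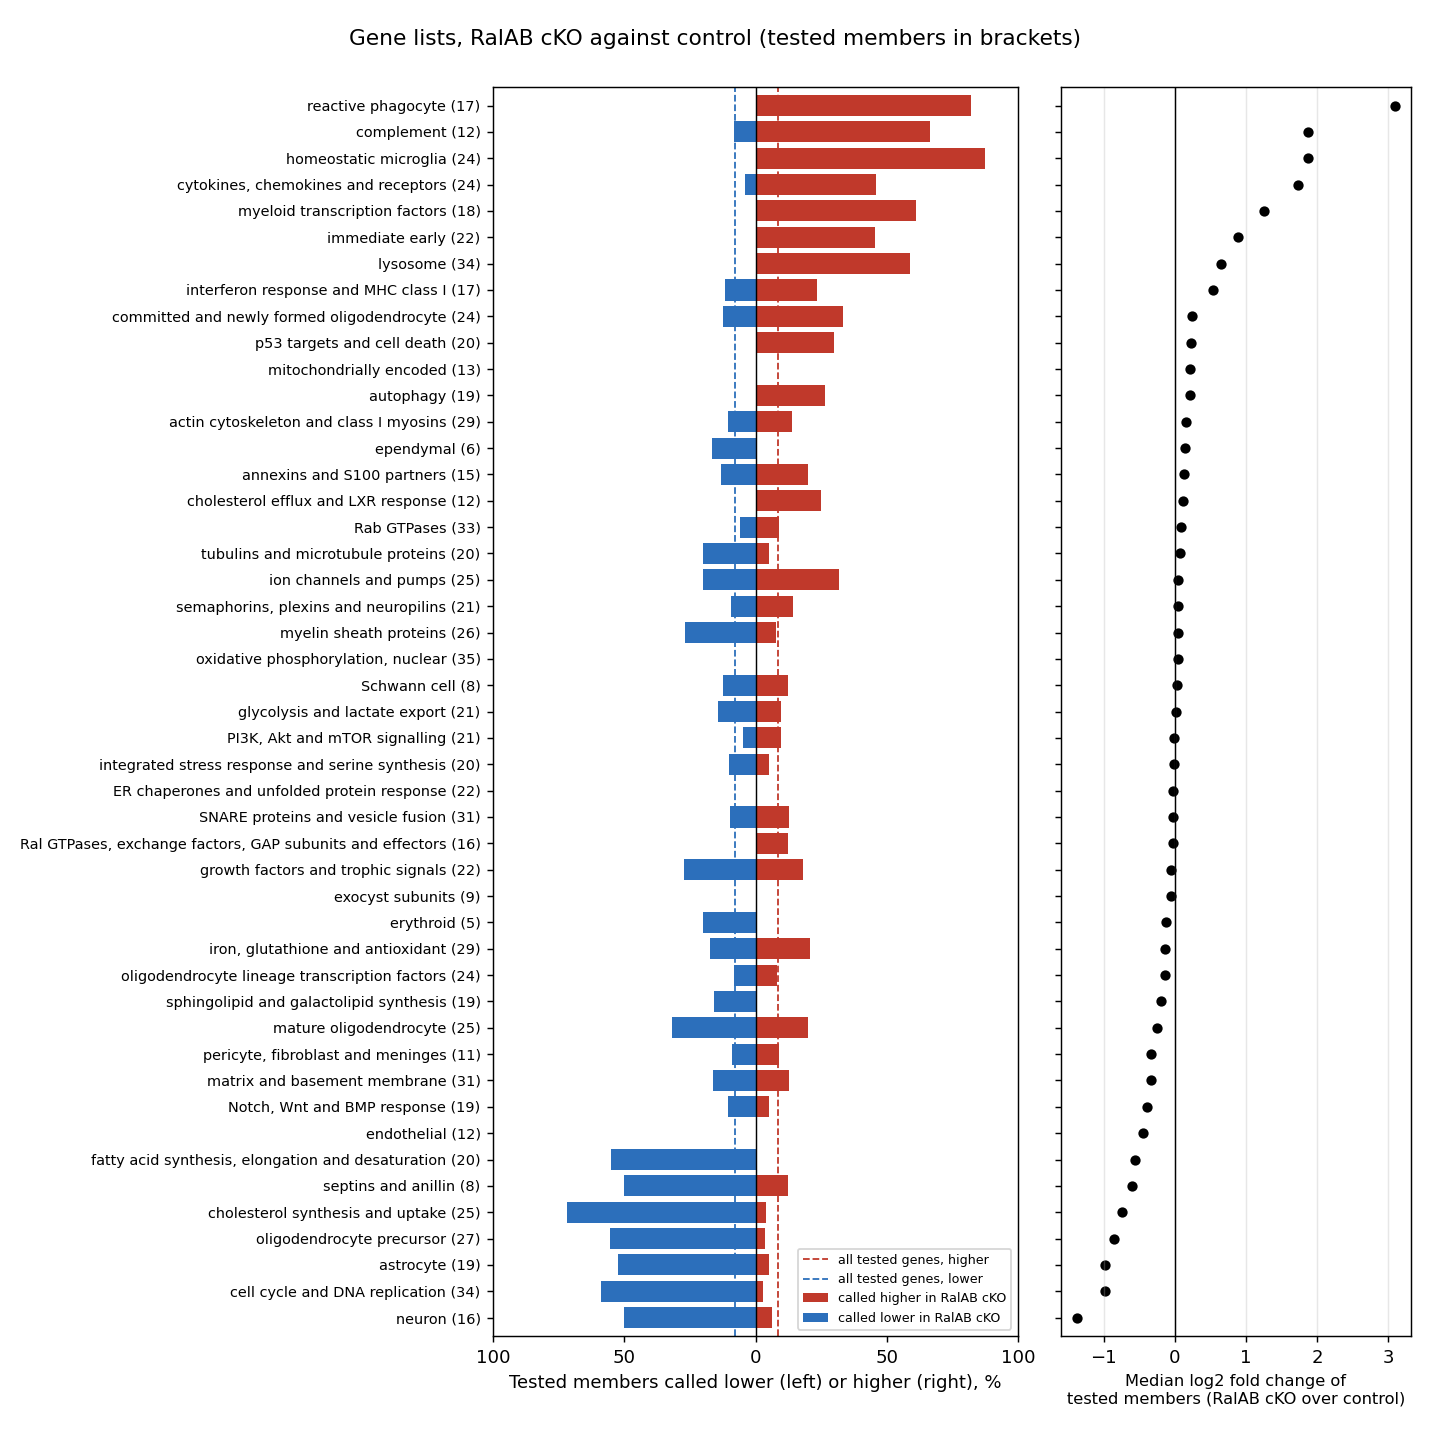
For each gene list with at least 5 tested members (number in brackets), the left panel shows the percentage of tested members called higher (red, to the right) or lower (blue, to the left) in RalAB cKO, with dashed lines at 8.43% and 7.95% for all tested genes, and the right panel shows the median log2 fold change of the tested members. Cell cycle genes (median -0.98) and neuron genes (-1.38) lie at the low end, and microglia (1.87) and reactive phagocyte genes (3.09) at the high end.

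Neither targeted gene passed the test when all its transcripts were summed. Rala (chr13:17880571-17944239, GRCm38) was at 36.1, 60.3, 47.8 and 57.2 CPM in control mice 1 to 4 and at 43.7, 32.7, 40.4 and 36.7 CPM in RalAB cKO mice 1 to 4. The groups overlapped because control 1 was low, and the difference of -0.39 ± 0.16 did not pass (adjusted p = 0.108 in edgeR). Without control 1 the fall was 0.52 and passed (adjusted p = 0.0164 in edgeR). On all 8 libraries Rala also passed with transcript length offsets (-0.63, adjusted p = 0.0071 in edgeR). The same held with quality weights (-0.53, adjusted p = 0.00908 in limma-voom). Ralb (chr1:119470305-119504794, GRCm38) was at 19.2, 15.3, 23.7 and 19.9 CPM in control and 14.3, 17.5, 16.2 and 16.3 CPM in RalAB cKO. Control 2 lay inside the mutant range, and Ralb differed by -0.28 ± 0.16 (adjusted p = 0.243 in edgeR). The main transcripts, Rala-201 (-0.34 ± 0.21, adjusted p = 0.586 in edgeR) and Ralb-201 (-0.3 ± 0.17, adjusted p = 0.526 in edgeR), did not pass either. A short transcript, Rala-202, had 76, 17.61, 36.8 and 10.75 estimated counts in control and 0, 0, 0 and 3.354 in RalAB cKO. Its counts did not overlap between groups, but its adjusted p was 0.107 in edgeR. The sources used here do not give the exons that the floxed alleles remove, so a gene total may still count a shortened mRNA, and the genotypes are used as labelled.

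As a list, genes of the Ral pathway moved little. Of 16 Ral GTPases, exchange factors, GAP subunits and effectors, with Rala and Ralb included, 2 rose and 0 fell (median -0.03). Without control 1 the only member that fell was Rala. Without RalAB cKO 1, 1 other member fell. Flna, which encodes filamin A, an actin crosslinker that RalA binds, was at 38.2, 36.4, 56.2 and 43.4 CPM in control and at 64.8, 65.8, 79.6 and 70.8 CPM in RalAB cKO. All mutant values lay above all control values, and the gene rose by 0.69 ± 0.14 (adjusted p = 0.0045 in edgeR). Rgl2, a guanine nucleotide exchange factor for Ral, rose by 0.53 ± 0.13 (adjusted p = 0.0122 in edgeR), but not without RalAB cKO 4 (0.43, adjusted p = 0.0512 in edgeR), which left 1 of the 2 rises, nor with mouse number as a block (0.52, adjusted p = 0.0523 in edgeR). None of the 9 exocyst subunits passed, also with any 1 library left out. Their differences ran from -0.36 ± 0.29 in Exoc6 to 0.13 ± 0.1 in Exoc4, with a median of -0.05, and together they held 0.0473 ± 0.0032% of control counts and 0.0448 ± 0.00314% of RalAB cKO counts.

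Genes of vesicle fusion and Rab traffic were called in both directions, at shares near those of all genes. Of 31 SNARE and fusion genes, 4 rose and 3 fell (median -0.03). Vamp8, a SNARE of late endosomes and regulated secretion, rose from 2.99 ± 0.67 to 9.51 ± 2.47 CPM (mean ± SD). Stx3, a syntaxin of plasma membrane fusion, rose by 1.98 ± 0.34. Of 33 Rab genes and partners, 3 rose and 2 fell (median 0.09). Rab37, linked to secretory granules, fell by 1.21 ± 0.16, while Rab3il1, an exchange factor for Rab3, rose by 1.43 ± 0.29. The 3 falls of the fusion list became 1 without control 4, RalAB cKO 3 or RalAB cKO 4. The 3 rises of the Rab list became 5 without control 1 and 7 without RalAB cKO 1, and its 2 falls became 1 without control 2, 3 or 4 or without RalAB cKO 2, 3 or 4.

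The genes that gained most counts in RalAB cKO included cytoskeletal, lysosomal and lipid carrier genes. By the difference of mean CPM, the 10 protein-coding called genes with the largest rise were Sirt2, Nfasc, Fscn1, Eef2, Ctsd, Rnd2, Ftl1, Add1, Parvb and Apoe. Sirt2, a deacetylase of myelin, was at 6940, 6210, 5410 and 6450 CPM in control and at 7010, 8940, 10100 and 10900 CPM in RalAB cKO. Its groups did not overlap, with control 1 and RalAB cKO 1 close together, and it rose by 0.56 ± 0.15 (adjusted p = 0.0227 in edgeR). That call was lost with any 1 of control 2, 3, 4 and RalAB cKO 2, 3, 4 left out (adjusted p from 0.054 to 0.0826 in edgeR) and with mouse number as a block (adjusted p = 0.118 in edgeR). Fscn1, the actin-bundling fascin, was at 1780, 1370, 1230 and 1520 CPM in control and at 2160, 3060, 3170 and 3270 CPM in RalAB cKO. All mutant values were higher, and the rise was 0.98 ± 0.16 (adjusted p = 0.000894 in edgeR). Rnd2, an atypical small GTPase, rose by 0.99 ± 0.16, Add1, an adducin that caps actin, by 0.82 ± 0.14, and Parvb, an actin-binding partner of integrin-linked kinase, by 0.76 ± 0.15. Eef2, the elongation factor that moves the ribosome, rose by 0.67 ± 0.16.

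Apoe, the main lipid carrier of the central nervous system, was at 407, 333, 663 and 393 CPM in control and at 751, 1180, 1250 and 1330 CPM in RalAB cKO. The highest control library, control 3, stayed below the lowest mutant library, and the rise was 1.33 ± 0.22 (adjusted p = 0.00195 in edgeR). Apoe is made by microglia and astrocytes as well. Microglia genes were also higher (0.048% to 0.103% of counts in control, 0.187% to 0.288% in RalAB cKO), and their part in the rise of Apoe was not tested.

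On the other side, the 10 largest falls in mean CPM included those of Scd2, Mobp, Gsn, Trf, Mal, Hmgcs1, Fth1, Apod and Mog. Most of these are myelin, lipid or iron genes of oligodendrocytes. Gsn, the actin-severing gelsolin, was at 5720, 4340, 3660 and 5320 CPM in control and at 2130, 2470, 2400 and 1810 CPM in RalAB cKO. Every mutant value was below every control value, and Gsn fell by 1.11 ± 0.16 (adjusted p = 0.000402 in edgeR). Apod, a lipocalin of mature oligodendrocytes, went from 951 to 1510 CPM in control to 334 to 478 CPM in RalAB cKO, and fell by 1.57 ± 0.16 (adjusted p = 3.15e-05 in edgeR).

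**Figure D3:**
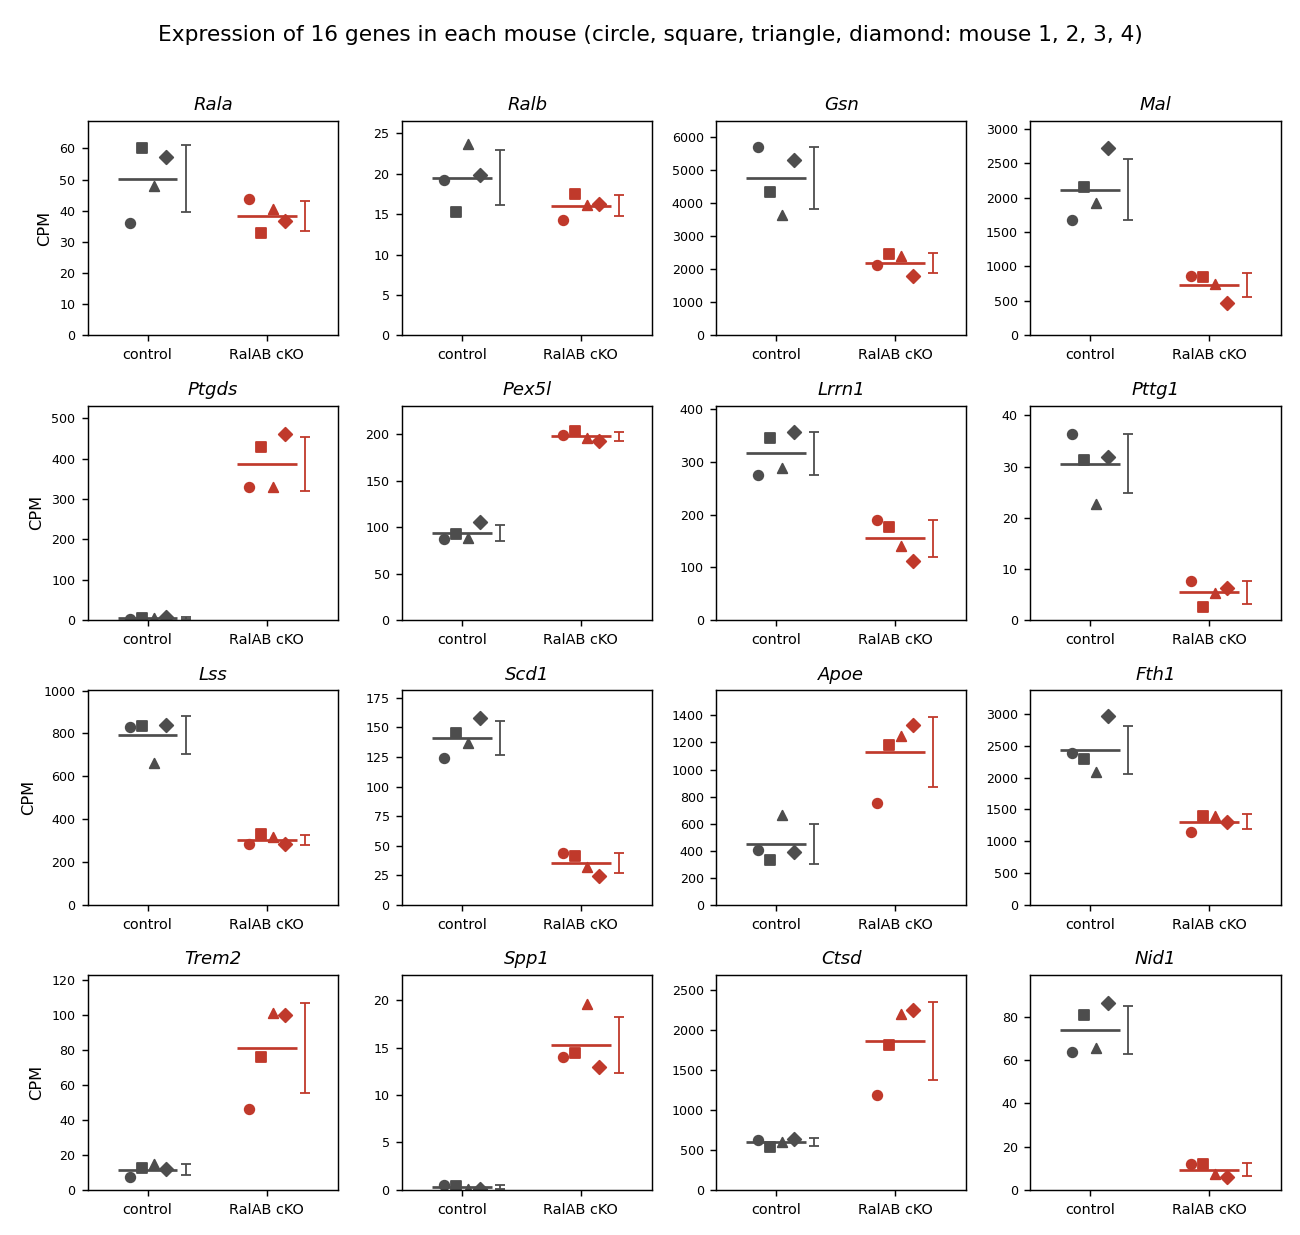
Expression of 16 genes (CPM scaled by TMM, y axes from 0) in each of the 4 control (grey) and 4 RalAB cKO (red) mice; horizontal lines are means, error bars 1 SD, and the marker shape gives the mouse number. Rala and Ralb overlap between groups, while Ptgds (3.6 to 7.67 against 330 to 460 CPM), Spp1, Trem2, Ctsd, Mal, Lss, Scd1 and Nid1 do not.

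Myelin protein genes as a group did not move in 1 direction. Of 26 tested, 2 rose and 7 fell, the median was 0.05 and the summed share of counts was nearly the same (13.4% and 13.2%). Mal, a proteolipid of compact myelin that also sorts membrane proteins, was at 1670, 2150, 1920 and 2720 CPM in control and at 856, 849, 745 and 475 CPM in RalAB cKO. No mutant library came near the control range, and Mal fell by 1.53 ± 0.2 (adjusted p = 0.000193 in edgeR). Ermn, the cytoskeletal protein ermin, fell by 1.05 ± 0.19, Trf, the iron carrier transferrin, by 0.77 ± 0.17, Mog, a glycoprotein of the outer myelin surface, by 0.6 ± 0.14 and Mobp, a basic protein of compact myelin, by 0.56 ± 0.14. With mouse number as a block, Mog (adjusted p = 0.0609 in edgeR) and Mobp (adjusted p = 0.0898 in edgeR) no longer passed, and Mobp did not pass without control 4 (-0.49, adjusted p = 0.0593 in edgeR). Nfasc, which encodes neurofascin, the glial form of which anchors the paranode, was at 7350, 7220, 7050 and 7650 CPM in control and at 9250, 10200, 10200 and 9910 CPM in RalAB cKO. The mutant values were all higher, and Nfasc rose by 0.43 ± 0.12 (adjusted p = 0.0227 in edgeR). The call of Nfasc ended without control 2 or 3 or without RalAB cKO 2, 3 or 4 (adjusted p from 0.0505 to 0.0814 in edgeR), and with the block (adjusted p = 0.169 in edgeR). Mbp, myelin basic protein, differed by 0.35 ± 0.16 (adjusted p = 0.162 in edgeR) and passed only with RalAB cKO 1 left out (0.45, adjusted p = 0.0439 in edgeR) among the runs without 1 library. The 7 falls became 4 without control 4 and 3 with the block. The 2 rises became 0 without control 2, control 3, RalAB cKO 2, RalAB cKO 3 or RalAB cKO 4, 5 without RalAB cKO 1, and 0 with the block.

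Markers of mature oligodendrocytes moved strongly in both directions. Of 25 tested, 5 rose and 8 fell, with a median of -0.25, and the falls included abundant members: the summed share went from 1.37 ± 0.132% to 0.979 ± 0.0971% of counts. Ptgds (chr2:25466709-25470046, GRCm38), a prostaglandin D2 synthase that marks a mature oligodendrocyte state, was at 3.6, 5.72, 5.66 and 7.67 CPM in control and at 330, 428, 330 and 460 CPM in RalAB cKO. This is a 69.1-fold rise (6.11 ± 0.22, adjusted p = 2.2e-09 in edgeR) that every mutant mouse showed. Pex5l, a binding partner of HCN channels, was at 87.2, 93, 88.4 and 106 CPM in control and 199, 204, 196 and 193 CPM in RalAB cKO. The spread within each group was small next to the rise of 1.08 ± 0.1 (adjusted p = 2.32e-05 in edgeR). Hcn2, one such pacemaker channel, rose by 1.24 ± 0.13. Serpinb1a, a protease inhibitor, rose by 1.75 ± 0.36. Adamtsl4, a matrix protein, rose by 2.02 ± 0.21, but did not pass with transcript length offsets (1.5, adjusted p = 0.0928 in edgeR). Apod and Gsn, given above, were among the 8 that fell, and so was Anln, the septin-binding anillin of myelin, by 1.5 ± 0.23. The 8 falls became 5 without RalAB cKO 4 and 5 with mouse number as a block.

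Precursor genes were mostly lower. Of 27 oligodendrocyte precursor genes, 15 fell and 1 rose, with a median of -0.86. Pdgfra, the receptor through which platelet-derived growth factor drives precursors to divide, was at 99.8, 107, 151 and 79 CPM in control and at 54.3, 21.8, 12.2 and 21.4 CPM in RalAB cKO. RalAB cKO 1 was the highest mutant library but lay below all controls, and Pdgfra fell by 1.99 ± 0.46 (adjusted p = 0.0246 in edgeR). Its call ended without control 1, 2 or 3 or without RalAB cKO 2 or 4 (adjusted p from 0.0504 to 0.0848 in edgeR). Lrrn1, a leucine-rich repeat membrane protein, was at 275, 345, 289 and 358 CPM in control and at 190, 176, 141 and 113 CPM in RalAB cKO. All mutant values were lower, and it fell by 1.03 ± 0.16 (adjusted p = 0.000609 in edgeR). Megf11 fell by 1.6 ± 0.27 and C1ql1, a secreted C1q-like protein, by 1.38 ± 0.25. The gene that rose was Bcan, the proteoglycan brevican (0.56 ± 0.17, adjusted p = 0.0345 in edgeR), a call lost without control 2 or 4 or without RalAB cKO 2, 3 or 4 and with mouse number as a block (adjusted p from 0.0684 to 0.126 in edgeR). The list's summed share moved little (0.885 ± 0.133% and 0.814 ± 0.0554%). The 15 falls became 7 without RalAB cKO 2 and 9 without RalAB cKO 4. In these sorted bulk samples, fewer cells of a type and less RNA per cell cannot be told apart.

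Many cell cycle genes fell as well. Of 34 tested, 20 fell and 1 rose (median -0.98), and they held 0.0749%, 0.0791%, 0.0979% and 0.0625% of counts in control and 0.0599%, 0.0396%, 0.0366% and 0.0466% in RalAB cKO. The shares did not overlap, with RalAB cKO 1 closest to control. Pttg1, the securin that holds separase inactive until anaphase, was at 36.4, 31.3, 22.7 and 31.9 CPM in control and at 7.69, 2.49, 5.36 and 6.19 CPM in RalAB cKO. The mutant values were all far below control, and Pttg1 fell by 2.48 ± 0.27 (adjusted p = 6.22e-05 in edgeR). Hmgb2, a chromatin protein of dividing cells, fell by 1.16 ± 0.18, Kif20a, a kinesin of cytokinesis, by 1.22 ± 0.22, and Aurkb, the chromosomal passenger kinase, by 1.37 ± 0.26. The gene that rose, the kinase Cdk2 (0.79 ± 0.21, adjusted p = 0.0187 in edgeR), did not pass without control 2 (adjusted p = 0.0582 in edgeR), without RalAB cKO 4 (adjusted p = 0.0592 in edgeR), with the block (adjusted p = 0.0548 in edgeR), with library totals alone (adjusted p = 0.0617 in edgeR) or with transcript length offsets (adjusted p = 0.142 in edgeR). The 20 falls became 13 without control 3 and 13 without RalAB cKO 2.

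Genes of committed and newly formed oligodendrocytes leaned the other way. Of 24 tested, 8 rose and 3 fell, with a median of 0.24 and a summed share of 2.46 ± 0.137% in control and 2.77 ± 0.0871% in RalAB cKO. Nfasc, given above, is also on this list and had the largest gain in CPM among its called members. Its mean was 7320 CPM in control and 9890 CPM in RalAB cKO, so the summed share leans on this gene. The call of Nfasc depended on single libraries and on the block, as given above. Tcf7l2, a transcription factor of differentiating oligodendrocytes, was at 53.1, 63.9, 78.2 and 72.5 CPM in control and at 108, 104, 96 and 110 CPM in RalAB cKO. The ranges were well apart, and Tcf7l2 rose by 0.64 ± 0.13 (adjusted p = 0.00349 in edgeR), although not with transcript length offsets (0.42, adjusted p = 0.0987 in edgeR). Frmd4a, a scaffold of cell polarity, rose by 0.65 ± 0.13 and Samd4b, an RNA-binding protein, by 0.61 ± 0.12. Bmp4, a secreted ligand of the earliest committed cells, was at 77.4, 90.1, 118 and 85.7 CPM in control and 53.3, 49.3, 35.6 and 37.5 CPM in RalAB cKO. It went against the list, falling by 1.08 ± 0.16 (adjusted p = 0.000491 in edgeR). The 8 rises became 4 without RalAB cKO 2, 5 without RalAB cKO 3 and 5 without RalAB cKO 4, and the 3 falls became 1 without any of these 3 libraries. Among 24 lineage transcription factors 2 rose and 2 fell (median -0.14). These counts turned on single libraries: 6 fell without RalAB cKO 1, 0 without RalAB cKO 3 and 1 without control 3, RalAB cKO 2 or RalAB cKO 4, and 1 rose without control 2 or 4 or without RalAB cKO 2, 3 or 4. With mouse number as a block 1 rose and 4 fell. Sox8, which acts beside Sox10, fell by 0.52 ± 0.13 (adjusted p = 0.0143 in edgeR), but not without RalAB cKO 3 (adjusted p = 0.0514 in edgeR) or RalAB cKO 4 (adjusted p = 0.057 in edgeR).

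Most genes of cholesterol synthesis and uptake fell. Of 25 tested, 18 fell and 1 rose, with a median of -0.74, and they held 1.51%, 1.52%, 1.35% and 1.57% of counts in control and 0.86%, 0.864%, 0.897% and 0.783% in RalAB cKO. No mutant library reached the lowest control library. With any 1 library left out, 17 to 19 members fell. Hmgcs1 (chr13:119690379-119708260, GRCm38), which makes HMG-CoA at the head of the pathway, was at 1800, 2600, 1980 and 2730 CPM in control and at 1050, 935, 1020 and 702 CPM in RalAB cKO. The groups were clearly apart, and the fall was 1.3 ± 0.17 (adjusted p = 0.000174 in edgeR). Lss, which closes squalene epoxide into the lanosterol ring, was at 830, 836, 660 and 841 CPM in control and at 286, 329, 315 and 284 CPM in RalAB cKO. Even control 3, the lowest control, was far above all mutants, and the fall was 1.38 ± 0.12 (adjusted p = 9.52e-06 in edgeR). Downstream, Cyp51, the lanosterol demethylase, fell by 1.24 ± 0.13 and Sc5d, a sterol desaturase, by 1.25 ± 0.15. Stard4, which moves cholesterol between membranes, fell by 1.43 ± 0.16. The member that rose was Hsd17b7, a late ketoreductase of the pathway, at 118 to 172 CPM in control and 201 to 238 CPM in RalAB cKO (0.6 ± 0.13, adjusted p = 0.00546 in edgeR). In the opposite branch, 3 of 12 genes of cholesterol efflux and the LXR response rose and 0 fell (median 0.11). Abca1, the transporter that loads cholesterol onto apolipoproteins, was at 3.06, 6.2, 9.8 and 4.9 CPM in control and at 25.8, 18.4, 24.3 and 19.9 CPM in RalAB cKO. The groups did not overlap, and it rose by 1.88 ± 0.28 (adjusted p = 0.000604 in edgeR). Microglia, which express Abca1 and Apoe, are described below.

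Fatty acid genes fell in the same samples. Of 20 genes of synthesis, elongation and desaturation, 11 fell and 0 rose (median -0.56), 9 to 12 of them with 1 library left out, and the summed share went from 1.54 ± 0.0668% to 0.911 ± 0.0554% of counts. Scd1, a stearoyl-CoA desaturase that makes oleate, was at 124, 145, 137 and 158 CPM in control and at 43.9, 41.4, 31.7 and 24.8 CPM in RalAB cKO. Each mutant value was far under the lowest control, and the fall was 1.99 ± 0.17 (adjusted p = 7.7e-06 in edgeR). Scd2, the desaturase that dominates in brain, went from 7610, 7410, 6820 and 8480 CPM to 3640, 4200, 4020 and 3400 CPM. That is a fall of 0.99 ± 0.13 (adjusted p = 0.000193 in edgeR) with no overlap. Acss2, which makes acetyl-CoA from acetate, fell by 1.59 ± 0.13, Fads2, which desaturates polyunsaturated fatty acids, by 1.03 ± 0.11, and Me1, which supplies NADPH, by 0.86 ± 0.12. Acsl1, which activates long-chain fatty acids, fell by 0.7 ± 0.12. Sphingolipid and galactolipid genes moved less: 3 of 19 fell and 0 rose (median -0.19), 1 of them without RalAB cKO 4. Cers2, the ceramide synthase for very long chains, fell by 0.59 ± 0.14 (adjusted p = 0.00856 in edgeR).

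**Figure D4:**
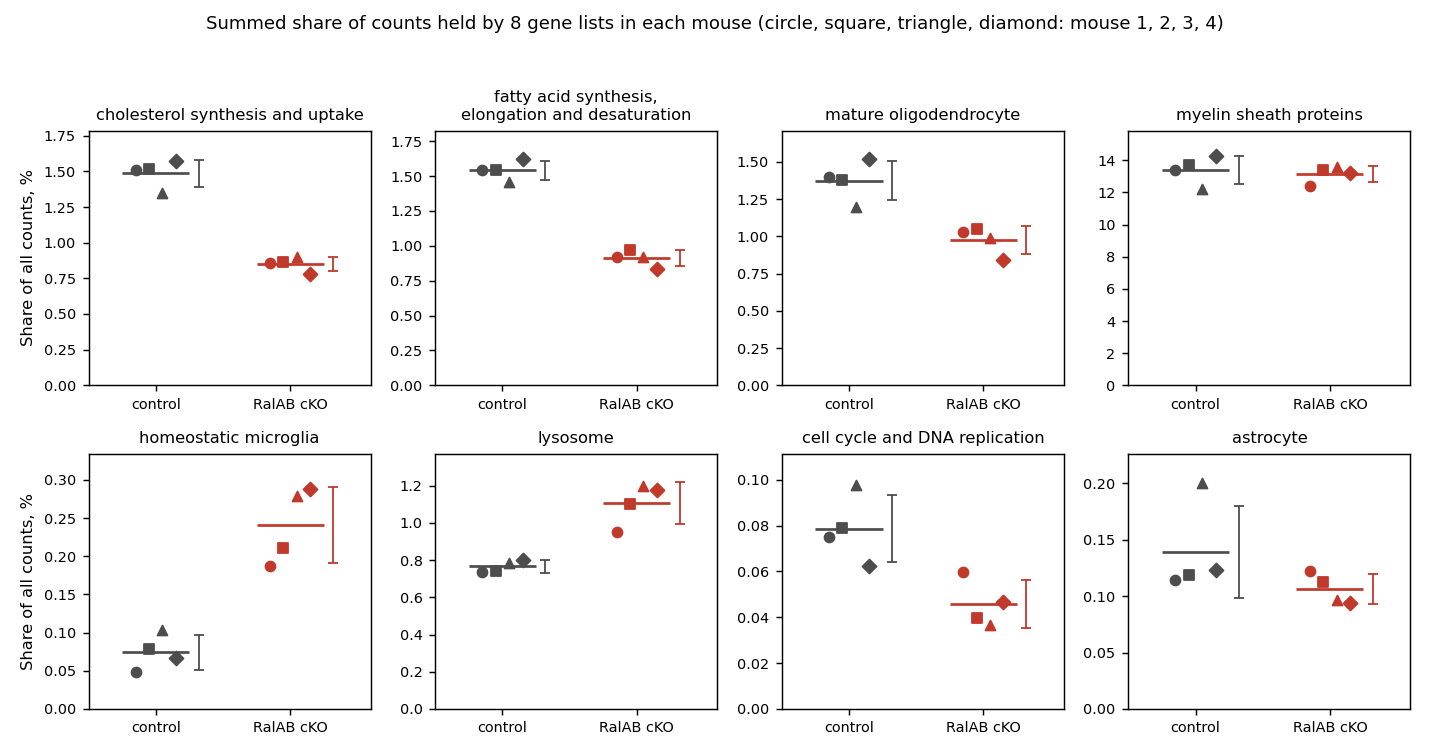
Summed share of all counts (%, y axes from 0) held by 8 gene lists in each mouse; horizontal lines are means and error bars 1 SD, with control in grey and RalAB cKO in red. Cholesterol and fatty acid shares are lower and lysosome and microglia shares higher in every mutant mouse, while myelin shares overlap and control 3 stands alone for astrocyte genes (0.2%).

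The promoters of the lipid genes bear on how these genes are commonly switched on, since sterol regulatory element binding proteins act on many of them. Promoter windows from RefSeq (GRCm38.p6), running from 250 bases before to 50 bases after the start, were searched on both strands for the sterol element TCACNCCAC. It was in 388 of 27025 genes with a window (1.44%) and in 1.41% of tested genes with a window. Of genes with a window, it was in 18 of 860 that rose (2.09%) and in 9 of 794 that fell (1.13%). Among list members it was in 1 of 18 cholesterol genes with a window (Hmgcs1) and in 1 of 17 fatty acid genes (Acsl1). Both genes fell, and the stretches are shown on the gene's strand, 5′ to 3′, with the matched bases in capitals (for Acsl1 the match is on the opposite strand).
Hmgcs1, chr13:119690174-119690262, plus strand: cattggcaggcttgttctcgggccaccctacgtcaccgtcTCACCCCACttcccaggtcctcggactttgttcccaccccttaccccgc
Acsl1, chr8:46490850-46490938, plus strand: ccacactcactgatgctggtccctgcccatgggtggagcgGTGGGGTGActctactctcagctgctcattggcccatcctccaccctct
The other 17 cholesterol and 16 fatty acid genes with a window did not hold these letters in either strand.

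Genes of microglia, the resident phagocytes of the spinal cord, mostly rose. Of 24 homeostatic microglia genes 21 rose and 0 fell, with a median of 1.87 (3.65-fold) and 21 or 22 rises with any 1 library left out. Their summed share was 0.048%, 0.0781%, 0.103% and 0.0666% of counts in control and 0.187%, 0.211%, 0.279% and 0.288% in RalAB cKO. The groups did not overlap, and control 3 was the highest of the controls. Trem2 (chr17:48346401-48354147, GRCm38), a microglial receptor for lipids and apolipoproteins, was at 7.32, 12.3, 14.5 and 11.9 CPM in control and at 46.3, 76, 101 and 99.7 CPM in RalAB cKO. All mutants were higher, RalAB cKO 1 least so, and Trem2 rose by 2.81 ± 0.27 (adjusted p = 7.49e-05 in edgeR). C1qa, a chain of complement C1q, was at 24.7, 36.9, 52.2 and 35.3 CPM in control and at 138, 224, 269 and 263 CPM in RalAB cKO, a rise of 2.58 ± 0.26 (adjusted p = 9.5e-05 in edgeR). Fcer1g, the signalling chain of Fc receptors, rose by 2.36 ± 0.25 and Itgam, the integrin CD11b, by 1.54 ± 0.21. Csf1r, the receptor on which microglia depend for survival, was at 58.8, 92.4, 124 and 80 CPM in control and at 219, 280, 396 and 394 CPM in RalAB cKO, again without overlap, and rose by 1.86 ± 0.24 (adjusted p = 0.000552 in edgeR). Cx3cr1, the fractalkine receptor, rose by 1.72 ± 0.28 and Tmem119, a membrane protein particular to microglia among brain cells, by 1.21 ± 0.21. P2ry12, the ADP receptor of resting microglia, was at 6.93, 14.3, 15.5 and 14.8 CPM in control and at 20.9, 15.2, 25.9 and 21.2 CPM in RalAB cKO. RalAB cKO 2 lay inside the control range, and P2ry12 did not pass (0.69 ± 0.24, adjusted p = 0.0612 in edgeR), except without RalAB cKO 2 among the runs with 1 library left out (0.82, adjusted p = 0.0449 in edgeR).

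Most tested genes of reactive phagocytes rose as well. Of 22 listed, 17 were tested, 14 rose and 0 fell, with a median of 3.09 (8.5-fold), and 13 to 15 rose with 1 library left out. Their summed share was 0.171 ± 0.0255% of counts in control and 0.258 ± 0.0219% in RalAB cKO (mean ± SD), a ratio of 1.51. Spp1, the secreted phosphoprotein osteopontin, was at 0.533, 0.403, 0.127 and 0.0924 CPM in control and at 14, 14.4, 19.6 and 13 CPM in RalAB cKO. It was close to undetected in control and present in every mutant, a rise of 5.64 ± 0.36 (adjusted p = 1.13e-06 in edgeR). Cd63, a tetraspanin of late endosomes that many cell types make, was at 58.9, 60.2, 58 and 61.3 CPM in control and at 154, 182, 201 and 191 CPM in RalAB cKO. Its control values were within a few CPM of each other, and it rose by 1.61 ± 0.11 (adjusted p = 2.51e-06 in edgeR). Lpl, the lipoprotein lipase, was at 1.46 to 3.69 CPM in control and 15.2 to 35.3 CPM in RalAB cKO, rising by 3.29 ± 0.31. Lyz2, lysozyme of myeloid cells, rose by 3.5 ± 0.33, and Lgals3, galectin 3, by 4.79 ± 0.45. Igf1, a growth factor that reactive microglia secrete, rose by 4.2 ± 0.51, from 0 to 0.322 CPM in control to 3.49 to 4.41 CPM in RalAB cKO.

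Markers of other myeloid and lymphoid cells were scarce. Of 12 genes of border and perivascular macrophages 3 were tested and 1 rose, Stab1, a scavenger receptor also made by microglia (8.73 to 20.7 CPM in control, 34.9 to 56.6 CPM in RalAB cKO, 1.91 ± 0.25, adjusted p = 0.000401 in edgeR). Of the defining markers, Cd163 had 0 to 12.4 counts per library, Lyve1 2 to 17 counts and Mgl2 0 to 7.88 counts over all 8 libraries. Of 18 genes of monocytes, neutrophils and lymphocytes 0 reached the count filter, and S100a9, Ly6c2, Retnlg, Camp, Cd3e, Nkg7, Gzma and Chil3 were at 0 counts in all 8 libraries. The B-cell receptor gene Cd79b, also on this list, had 1 to 9 counts in control and 9 to 18 in RalAB cKO. It was called higher with no count filter, by DESeq2, without control 3, without RalAB cKO 1 and without both first mice, and was tested but not called without control 1, 2 or 4. The microglia share was higher in the same mutants (0.187% to 0.288% against 0.048% to 0.103%), and its part in the Cd79b counts was not tested.

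Many immune signalling genes rose together with the microglia share. Of 12 tested complement genes 8 rose and 1 fell (median 1.87). C1qb rose by 2.39 ± 0.28, C1qc by 2.17 ± 0.3, C3ar1, the receptor for C3a, by 2.52 ± 0.35 and Itgb2, the β chain that pairs with Itgam, by 2.37 ± 0.23. The gene that fell, Cd55, which speeds the decay of complement convertases, was at 0.891 to 1.45 CPM in control and 0.232 to 0.498 CPM in RalAB cKO. Its fall of 1.7 ± 0.46 (adjusted p = 0.0203 in edgeR) was not called without control 2, RalAB cKO 3 or RalAB cKO 4 (adjusted p from 0.0578 to 0.0797 in edgeR). On all 8 libraries its call also ended with no count filter, the block or length offsets (adjusted p from 0.064 to 0.0731 in edgeR). Of 24 cytokines, chemokines and receptors 11 rose and 1 fell (median 1.73). Tnfrsf1b, a receptor for tumour necrosis factor, was at 2.66, 2.58, 4.14 and 3.35 CPM in control and at 16.3, 18.7, 23.1 and 18.8 CPM in RalAB cKO. The values were tight within groups and far apart between them, and the rise was 2.59 ± 0.2 (adjusted p = 5.96e-06 in edgeR). The chemokine Ccl9 rose by 2.03 ± 0.3 and Cxcl16 by 2.55 ± 0.42. Cxcl12, a chemokine that also acts on oligodendrocyte precursors, fell by 1.61 ± 0.27. The falls of this list became 2 without control 1, RalAB cKO 1 or RalAB cKO 3. Of 18 myeloid transcription factors 11 rose and 0 fell (median 1.25): Spi1, which encodes PU.1, rose by 2.34 ± 0.34, its partner Irf8 by 2.22 ± 0.19 and Cebpa by 2.57 ± 0.2. The microglia share rose over the same libraries, 3.26-fold on average, and its part in these lists was not tested.

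Of 17 interferon response and MHC class I genes 4 rose and 2 fell (median 0.54). The rises included genes of antigen presentation. B2m, the light chain of MHC class I, was at 14.8, 36, 32.1 and 25.2 CPM in control and 59.5, 68.1, 67.1 and 69.3 CPM in RalAB cKO (1.29 ± 0.21, adjusted p = 0.00137 in edgeR). Psmb8, a subunit of the immunoproteasome, rose by 1.69 ± 0.31. For B2m the mutant values were tight and all above control. The microglia share was higher in the same mutants (0.187% to 0.288% against 0.048% to 0.103%), and its part in these rises was not tested. The 2 falls, Ifit2 (-1.43 ± 0.44) and Stat2 (-0.42 ± 0.13), became 0 without control 1, 2 or 4 or without RalAB cKO 2, 3 or 4.

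PU.1 binds purine-rich sites, and the promoter windows were searched on both strands for GAGGAAGT. It was in 997 of 27025 genes with a window (3.69%) and in 3.42% of tested genes with a window. Of genes with a window, it was in 61 of 860 that rose (7.09%) and in 21 of 794 that fell (2.64%). Among list members it was in 2 of 17 microglia genes, including C1qc, and in 1 of 17 reactive phagocyte genes (Spp1). Both C1qc and Spp1 rose. Of 14 complement genes with a window it was in 1, again C1qc. Of 15 myeloid transcription factors with a window it was in 1, Rel, which was not called, and in 0 of the 8 called members. The stretches of C1qc and Spp1 around the match, in capitals, are given on the gene's strand, 5′ to 3′, since these 2 genes carried large rises. In C1qc the match is on the opposite strand.
C1qc, chr4:136893062-136893149, minus strand: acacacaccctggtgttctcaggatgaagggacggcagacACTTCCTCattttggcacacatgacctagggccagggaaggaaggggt
Spp1, chr5:104434958-104435045, plus strand: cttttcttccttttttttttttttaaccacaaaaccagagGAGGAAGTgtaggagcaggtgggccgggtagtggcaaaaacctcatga

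Many lysosomal genes rose, and so did their summed level. Of 34 tested, 20 rose and 0 fell (median 0.65), 18 to 21 with 1 library left out, and the summed share went from 0.736%, 0.74%, 0.785% and 0.803% of counts in control to 0.951%, 1.1%, 1.2% and 1.18% in RalAB cKO. The groups did not overlap, and RalAB cKO 1 was lowest among the mutants. Ctsd, the protease cathepsin D, was at 625, 531, 598 and 639 CPM in control and at 1180, 1810, 2190 and 2240 CPM in RalAB cKO. It rose by 1.63 ± 0.18 (adjusted p = 5.13e-05 in edgeR). Grn, progranulin, was at 111, 118, 126 and 123 CPM in control and at 260, 409, 434 and 426 CPM in RalAB cKO. Control values lay close together, and the rise was 1.68 ± 0.15 (adjusted p = 1.44e-05 in edgeR). Hexa, a hexosaminidase subunit, rose by 1.36 ± 0.15, Ctsz, cathepsin Z, by 1.95 ± 0.2 and Ctsa, a protective carboxypeptidase of the lysosome, by 0.92 ± 0.15. Microglia also express lysosomal genes at a high level, and the rise of the microglia share from 0.074 ± 0.0231% to 0.241 ± 0.0499% was in the same libraries, so its part in this rise was not tested. Autophagy genes moved less: 5 of 19 rose and 0 fell (median 0.21). Atg13, a subunit of the initiating kinase complex, rose by 0.54 ± 0.11, and Ulk1, the kinase itself, by 0.45 ± 0.11, the latter not with mouse number as a block (adjusted p = 0.0652 in edgeR). The 5 rises became 2 without control 2, 3 or 4 or without RalAB cKO 2, 3 or 4, 8 without RalAB cKO 1, and 1 with the block.

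The letters TCACGTGA, the core of the element bound by the lysosomal regulator TFEB and its relatives, were searched on both strands of the promoter windows. They read the same on both strands. They were in 304 of 27025 windows (1.12%), in 2.21% of tested genes with a window, in 2.79% of those that rose, in 1.13% of those that fell and in 4 of 26 lysosomal genes, of which Ctsa and Ctsd rose. These 2 are shown with the match in capitals, on the gene's strand, 5′ to 3′, because Ctsd had the largest gain in counts of the lysosomal genes named.
Ctsd, chr7:142387879-142387966, minus strand: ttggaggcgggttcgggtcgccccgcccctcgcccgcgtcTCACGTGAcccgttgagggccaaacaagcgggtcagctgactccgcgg
Ctsa, chr2:164833720-164833772, plus strand: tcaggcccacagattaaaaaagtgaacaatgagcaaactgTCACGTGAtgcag

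Among stress programmes, some immediate early and cell death genes rose, and the endoplasmic reticulum response had no call. Of 22 immediate early genes 10 rose and 0 fell (median 0.89), and 16 rose without control 3, the control with the highest share (0.11% against 0.0624% to 0.0776%). Zfp36, which destabilises cytokine mRNAs, was at 33, 38.4, 65.5 and 47.2 CPM in control and at 98.6, 116, 156 and 132 CPM in RalAB cKO. The groups were apart, and it rose by 1.45 ± 0.2 (adjusted p = 0.000468 in edgeR). Jun, a subunit of AP-1, rose by 0.74 ± 0.14 and Arc, an activity-induced gene, by 0.75 ± 0.15. The microglia share was higher in the same mutants (0.187% to 0.288% against 0.048% to 0.103%), and its part was not tested. Of 20 p53 targets and cell death genes 6 rose and 0 fell (median 0.23). Bmf, a BH3-only activator of apoptosis, was at 81.4, 64.8, 60.5 and 76.7 CPM in control and at 143, 160, 144 and 106 CPM in RalAB cKO. RalAB cKO 4 was lowest among the mutants but above all controls, and Bmf rose by 0.96 ± 0.14 (adjusted p = 0.000485 in edgeR). Other BH3-only genes rose too, Hrk by 2.2 ± 0.4 and Bbc3, which encodes PUMA, by 0.99 ± 0.2. Cdkn1a, the cyclin-dependent kinase inhibitor p21, rose by 1.87 ± 0.38.

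Of 20 genes of the integrated stress response and serine synthesis 1 rose and 2 fell (median -0.01). Pycr1, which makes proline, rose by 1.09 ± 0.22, while Phgdh, the entry enzyme of serine synthesis, fell by 0.7 ± 0.15. That list varied with single libraries: 3 rose without control 1 and 2 without RalAB cKO 1 or RalAB cKO 4, and 1 fell without control 1, 2 or 3 or without RalAB cKO 2, 3 or 4. None of 22 genes of endoplasmic reticulum chaperones and the unfolded protein response passed (median -0.02), 1 of them doing so without RalAB cKO 1. Calr, the chaperone calreticulin, differed by 0.17 ± 0.15 and Pdia3, a disulfide isomerase, by -0.1 ± 0.13. Respiratory genes showed no call in the full comparison either: 0 of 35 nuclear genes of oxidative phosphorylation (median 0.04; Atp5b, a subunit of ATP synthase, 0.12 ± 0.13) and 0 of 13 mitochondrially encoded genes (median 0.21; mt-Co3, a subunit of cytochrome oxidase, 0.21 ± 0.16). Without control 1 there were 4 nuclear respiratory rises and without RalAB cKO 1 there were 6. Without control 2, 3 mitochondrially encoded genes rose, and without RalAB cKO 1 there was 1.

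Glycolytic genes had 2 rises and 3 falls among 21 (median 0.02). Pfkfb3, which makes the activator of phosphofructokinase, was at 11.4, 14.1, 17 and 14.1 CPM in control and at 35.1, 38.5, 36.5 and 31.6 CPM in RalAB cKO. All mutant values were far above the highest control, and the rise was 1.32 ± 0.15 (adjusted p = 5.59e-05 in edgeR). Pfkp, a phosphofructokinase, fell by 0.71 ± 0.12. Eno2, the neuronal form of enolase, was at 16.2, 11.8, 36.3 and 15.2 CPM in control and at 132, 145, 152 and 170 CPM in RalAB cKO, without overlap, and rose by 2.9 ± 0.32 (adjusted p = 0.000367 in edgeR). The largest fold change of all named genes, that of Eno1b (0, 1.15, 0.881 and 0 CPM in control, 276, 213, 341 and 227 CPM in RalAB cKO), is uncertain, since Eno1b is a near-identical copy of Eno1. Eno1 had 759, 558, 636 and 633 CPM in control and 238, 490, 321 and 551 CPM in RalAB cKO, and the sum of both was 647 ± 83.1 and 664 ± 111 CPM (mean ± SD), a ratio of 1.03. The summed level of the pair thus differed by less than the spread between mice. The 2 rises became 4 without control 1 or RalAB cKO 1, and the 3 falls became 5 without RalAB cKO 1.

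Septins and cytoskeletal genes changed member by member. Of 8 septins and anillin 4 fell and 1 rose (median -0.6). Sept9 was at 58.1, 56.3, 39.1 and 55.3 CPM in control and at 22.7, 28.1, 27 and 22.4 CPM in RalAB cKO, all mutants lower, and fell by 1.06 ± 0.15 (adjusted p = 0.000288 in edgeR). Sept8, part of the septin filaments of myelin, fell by 0.56 ± 0.12 and Sept5 by 0.64 ± 0.14. Sept11 went up instead, from 36.1, 51.7, 44.8 and 36.2 CPM to 94.4, 76, 101 and 107 CPM (1.17 ± 0.15, adjusted p = 0.000137 in edgeR), and without RalAB cKO 1 there were 2 rises. Of 20 tubulins and microtubule genes 4 fell and 1 rose (median 0.07). Tubb3, a tubulin of neurons and immature glia, fell from 40.3 to 51.1 CPM in control to 13.2 to 15.5 CPM in RalAB cKO (1.65 ± 0.13 on the log2 scale, adjusted p = 6.18e-06 in edgeR). Stmn1, a tubulin-sequestering protein, fell by 0.71 ± 0.12, and Tubb6 rose by 1.95 ± 0.35. The single rise became 3 without control 3 and 2 without control 4.

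Of 29 actin and class I myosin genes 4 rose and 3 fell (median 0.16). Myo1e, a membrane-bound myosin, was at 104, 110, 75.9 and 116 CPM in control and at 28.3, 43.3, 34.5 and 32.4 CPM in RalAB cKO. Its groups were far apart, and it fell by 1.55 ± 0.16 (adjusted p = 3.15e-05 in edgeR). Among the rises were genes of myeloid cells, Capg, an actin-capping protein, by 2.91 ± 0.33 and Myo1f by 2.91 ± 0.36, and the part of the microglia share (0.048% to 0.103% and 0.187% to 0.288%) was not tested. The 4 rises became 2 without control 4, RalAB cKO 2 or RalAB cKO 4 and 7 without RalAB cKO 1. Among 15 annexins and S100 proteins 3 rose and 2 fell (median 0.13). Anxa2, which links membranes to actin and to exocytosis, was at 3.13, 2.82, 3.37 and 4.62 CPM in control and at 26.7, 32.3, 38.2 and 43.3 CPM in RalAB cKO. That is a 10.1-fold rise (3.34 ± 0.2, adjusted p = 9.35e-07 in edgeR) seen in all mutants. Anxa3 rose by 1.86 ± 0.38 and Anxa4 by 1.52 ± 0.32. Anxa5, which binds exposed phosphatidylserine, fell from 108 to 163 CPM in control to 48.7 to 72.7 CPM in RalAB cKO (1.11 ± 0.15 on the log2 scale, adjusted p = 0.000267 in edgeR). The 2 falls became 1 without control 3 or 4 or without any 1 of the 4 RalAB cKO libraries.

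Matrix genes included some of the largest falls. Of 31 tested, 5 fell and 4 rose (median -0.33), and 7 rose without control 3. Nid1, the basement membrane linker nidogen 1, was at 63.7, 80.7, 65.7 and 86.2 CPM in control and at 11.8, 11.8, 7.23 and 6.03 CPM in RalAB cKO. The groups were far apart, an 8.04-fold fall (-3.01 ± 0.21, adjusted p = 2.91e-06 in edgeR). Mgp, the matrix Gla protein that inhibits calcification, fell by 3.11 ± 0.31, with control 3 lowest of the controls at 13.1 CPM and the mutants at 1.96 to 3.82 CPM. Ncan, the proteoglycan neurocan, fell by 0.93 ± 0.17. Adamts1, a secreted metalloprotease, rose by 2.24 ± 0.29 and Itgb5, the β5 integrin, which microglia also express, by 2.31 ± 0.34.

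Secreted growth factors and growth factor receptors moved in both directions. Of 22 tested genes of both kinds, 4 rose and 6 fell (median -0.05), and the receptor Fgfr3, given below, was among the falls. Fgf1, acidic fibroblast growth factor, was at 9.79, 12.7, 10.8 and 11.1 CPM in control and at 2.34, 3.4, 1.7 and 2.16 CPM in RalAB cKO. All mutants were far lower, and Fgf1 fell by 2.2 ± 0.24 (adjusted p = 4.86e-05 in edgeR). Nell1, a secreted signal of bone formation, fell by 2.3 ± 0.25 and Hbegf, a ligand of the EGF receptor, by 1.14 ± 0.24. Pdgfb, a chain of platelet-derived growth factor, rose by 2.26 ± 0.26, and Nrg1, the neuregulin that binds ErbB receptors, was at 1.03, 2.06, 1.72 and 2.88 CPM in control and 7.12, 11.7, 10.2 and 10.5 CPM in RalAB cKO, without overlap (2.38 ± 0.3, adjusted p = 0.000146 in edgeR). Of 21 semaphorins, plexins and neuropilins 3 rose and 2 fell (median 0.05). Sema3b, a secreted repellent of axons, rose by 2.47 ± 0.31 and Plxnb2, a semaphorin receptor, by 0.79 ± 0.17. The 2 falls of that list became 1 without control 2 or 3, 0 without control 4, RalAB cKO 3 or RalAB cKO 4, and 4 without RalAB cKO 1. Of 19 Notch, Wnt and BMP response genes 1 rose and 2 fell (median -0.39): Smad7, an inhibitor of BMP and TGF-β signalling, rose by 0.6 ± 0.14, while the receptor Notch1 fell by 0.79 ± 0.15 and Nkd1, a feedback inhibitor of Wnt signalling, by 0.62 ± 0.14. PI3K, Akt and mTOR genes had 2 rises and 1 fall among 21 (median -0.01), a share near that of all genes, and with 1 library left out these counts ran from 0 to 2 and from 0 to 3, with 0 rises without control 2 and 3 falls without control 1 or RalAB cKO 1.

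Ion channel and pump genes were called often, 8 higher and 5 lower of 25 (median 0.05), and 5 rose with mouse number as a block. Atp1b3, a β subunit of the sodium pump, rose by 0.76 ± 0.14. Trpv2, a cation channel of macrophages and other cells, rose by 1.9 ± 0.32, while Kcnk1, a background potassium channel, fell by 1.66 ± 0.37. Iron and antioxidant genes were split 6 higher and 5 lower of 29 (median -0.14). The 2 ferritin chains went in opposite directions: Ftl1, the light chain, from 1220, 1100, 922 and 1050 CPM to 1420, 1940, 2240 and 2390 CPM (0.89 ± 0.16, adjusted p = 0.00189 in edgeR), and Fth1, the heavy chain, from 2390, 2290, 2080 and 2970 CPM to 1140, 1390, 1390 and 1300 CPM (-0.9 ± 0.14, adjusted p = 0.000552 in edgeR). Neither overlapped between groups, but both genes have processed pseudogene copies, so their counts are less certain. The metallothioneins Mt1 and Mt2, which bind zinc and copper, rose by 2.29 ± 0.22 and 2.4 ± 0.23. Mt1 was at 78.6, 98.5, 59.9 and 72.9 CPM in control and at 244, 334, 442 and 497 CPM in RalAB cKO, every mutant far above every control.

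Genes of other neural cells were mostly lower. Of 19 astrocyte genes 10 fell and 1 rose (median -0.98), and 6 fell with mouse number as a block. Slc6a11, a GABA transporter, was at 158, 147, 273 and 156 CPM in control and at 111, 101, 72.3 and 82.8 CPM in RalAB cKO. Control 3 stood high, but the other controls were also above all mutants, and it fell by 1.0 ± 0.2 (adjusted p = 0.00537 in edgeR). Gja1, connexin 43, fell by 1.25 ± 0.26, Fgfr3, a receptor for fibroblast growth factors, by 1.06 ± 0.23 and Aldoc, the brain aldolase, by 0.66 ± 0.13. Glul, glutamine synthetase, which oligodendrocytes also make, rose by 0.6 ± 0.1. The summed astrocyte share was 0.114% to 0.2% in control, highest in control 3, and 0.0937% to 0.122% in RalAB cKO, so the shares overlapped. Of 16 neuron genes 8 fell and 1 rose (median -1.38), and 5 fell without RalAB cKO 2 or without RalAB cKO 4. Uchl1, a ubiquitin hydrolase abundant in neurons, was at 191, 150, 149 and 179 CPM in control and at 60.4, 64.9, 70.4 and 63.1 CPM in RalAB cKO, with no overlap, and fell by 1.37 ± 0.12 (adjusted p = 9.52e-06 in edgeR). Nefh, the heavy neurofilament, fell by 1.86 ± 0.37. The neuron gene that rose was Eno2, given above.

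Vascular, meningeal, Schwann and blood genes were few. None of 12 endothelial genes passed (median -0.45), 1 falling without RalAB cKO 2. Of 11 pericyte, fibroblast and meningeal genes Anpep, an aminopeptidase also of myeloid cells, rose (0 to 0.277 CPM in control, 1.44 to 2.6 CPM in RalAB cKO) and Mgp fell, and a further gene fell without control 2. Of 8 tested Schwann cell genes Ngfr, the p75 neurotrophin receptor, rose by 1.57 ± 0.33 and Mal, shared with the myelin list, fell, and a further gene fell without control 1. Ependymal genes had 1 fall among 6, Nnat, a neuronatin shared with the precursor list (-0.51 ± 0.14), which was lost without RalAB cKO 2 or RalAB cKO 3, and 1 rise without control 1, control 3 or RalAB cKO 1. Among 5 erythroid genes Hba-a2 fell (2.53 ± 0.49 on the log2 scale), but it shares its sequence with Hba-a1, and the sum of the pair was 60.5 ± 21.6 CPM in control and 55.5 ± 19.6 CPM in RalAB cKO, within the spread between mice.

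Outside these lists, the genes that rose with the smallest p were Klhl30, Cpeb1, Kit, Ogdhl, Elmod1, Sh3bp2, Gsto1, Synpr, Sema4f and Eno1b. Klhl30, a kelch protein, was at 1.2, 0.322, 0.573 and 0.739 CPM in control and at 12.4, 18.1, 19.3 and 13.6 CPM in RalAB cKO. It was low in every control and present in every mutant, and rose by 4.45 ± 0.32 (adjusted p = 2.85e-06 in edgeR). Cpeb1, which controls the polyadenylation of stored mRNAs, was at 4.07 to 5.48 CPM in control and 21.4 to 24.9 CPM in RalAB cKO. It rose by 2.2 ± 0.16. Kit, the receptor for stem cell factor, was at 2.8, 4.27, 5.28 and 4.16 CPM in control and at 35, 27.9, 21.8 and 22.5 CPM in RalAB cKO. Here RalAB cKO 1 was the highest of the mutants, not the one nearest to control, and Kit rose by 2.7 ± 0.22 (adjusted p = 7.08e-06 in edgeR). Ogdhl, a relative of the oxoglutarate dehydrogenase subunit, rose by 1.69 ± 0.15, Elmod1, a GTPase-activating protein for Arl2, by 2.08 ± 0.19, and Sh3bp2, an adaptor of immune receptor signalling, by 1.81 ± 0.17. Gsto1, an omega-class glutathione transferase, rose from 173 to 202 CPM in control to 407 to 670 CPM in RalAB cKO (1.52 ± 0.14), Synpr, a synaptic vesicle membrane protein, by 3.25 ± 0.31 and Sema4f, a membrane semaphorin, by 1.41 ± 0.13.

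Among genes outside the lists that fell with the smallest p were St8sia5, Mgst3, Vat1l, Cyp2j12, Aif1l, Plin3, Clgn, Gucy1a1, Cd200 and Pla2g16. St8sia5, a sialyltransferase that builds complex gangliosides, was at 8.92, 9.35, 8.4 and 10.6 CPM in control and between 0.541 and 1.21 CPM in RalAB cKO. The mutants were all far lower, an 11.1-fold fall (-3.47 ± 0.28, adjusted p = 6.6e-06 in edgeR). Mgst3, a microsomal glutathione transferase, was at 65.7, 53.5, 43.7 and 65.2 CPM in control and at 12.9, 12.9, 18 and 13.3 CPM in RalAB cKO. It fell by 2.0 ± 0.16 (adjusted p = 7.31e-06 in edgeR), again with no overlap. Plin3, a coat protein of lipid droplets, fell by 1.48 ± 0.15 and Pla2g16, a phospholipase, by 1.31 ± 0.15. Cd200, the membrane ligand that restrains microglia through its receptor, was at 30.2, 32.6, 35.7 and 32.2 CPM in control and at 12.7, 7.3, 11.4 and 7.27 CPM in RalAB cKO. Control values were tight, and Cd200 fell by 1.76 ± 0.19 (adjusted p = 4.37e-05 in edgeR). Gucy1a1, a subunit of the nitric oxide receptor, fell by 1.53 ± 0.16, Clgn, a chaperone of the endoplasmic reticulum, by 1.81 ± 0.19, Aif1l, an actin-binding protein, by 1.49 ± 0.15, and Vat1l by 1.61 ± 0.14. Cyp2j12, of a cytochrome P450 cluster with close copies, fell by 3.18 ± 0.3 and is less certain for that reason.

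At the level of transcripts 28175 were tested and 422 passed (1.5%), 249 higher and 173 lower. Npnt (chr3:132881745-132950291, GRCm38), which encodes the matrix protein nephronectin, was the gene with transcripts called in opposite directions. As a whole the gene rose, from 1.66, 1.77, 3.69 and 2.59 CPM in control to 6.95, 7.96, 10.1 and 9.28 CPM in RalAB cKO (1.81 ± 0.28, adjusted p = 0.000667 in edgeR). Its transcript Npnt-202 had 0 estimated counts in every control and 77.32, 87.91, 120.5 and 111.8 in RalAB cKO mice, at least 34.7-fold higher when 0 is replaced by 3 counts in each library (adjusted p = 0.00806 in edgeR). Npnt-206 had 14.73, 13.54, 47.83 and 26.13 counts in control and 0 in every mutant, at least 7.91-fold lower (adjusted p = 0.0481 in edgeR). The switch was complete in these estimates, but a transcript's count is a share of reads that several transcripts of the gene can match, and the opposite calls were lost with any 1 library left out except control 3. The count of called transcripts was 408 without RalAB cKO 1 and 319 without control 3. It dropped to 254, 176 and 78 without control 1, 2 and 4, and to 91, 70 and 110 without RalAB cKO 2, 3 and 4.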

How the data were processed

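RNA sequencing of sorted spinal cord cells was available as 1 table per mouse. Per the file headers, each table the authors deposited had 1 line per transcript with its estimated count, its effective length and its TPM. Per the submitters' processing notes, Trimmomatic 0.36, kallisto 0.44 and the build GRCm38.p6 were used, but the sources used here do not tie them to steps. All tests were run on the estimated counts as the authors deposited them. The deposited TPM values and effective lengths served only as weights and lengths in 1 alternative, the transcript length offsets. Libraries came from stranded mRNA preparations, per the labels' protocols, and the labels do not give the sex of the mice.

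Of 121843 transcripts, 121104 matched GENCODE vM21 by identifier. The other 739 held 0.2412% to 0.2772% of counts and were left out. Sums per gene (35675 genes) were rounded to whole numbers. The filter of edgeR 4.0.16 in R 4.3.3 (minimum count 10, total 15) kept 13224 genes. TMM scaling and robust quasi-likelihood F tests compared the 2 groups, with Benjamini-Hochberg adjustment at 0.05, and the common biological coefficient of variation was 0.202. CPM of single genes used TMM-scaled totals, and summed shares used plain library totals. Pairs of libraries within a group differed far beyond sampling noise (chi-square per degree of freedom 9.09 to 39.5), so all 8 counted as separate mice. Same-numbered mice did not deviate together (correlations -0.211 to -0.0833), and mouse numbers did not enter the main test. The tests were also checked on simulated counts.

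The rule for naming genes took the targets, the 10 largest rises and falls in mean CPM, the 10 smallest p in each direction outside the lists (mean of at least 5 CPM), up to 5 called members per list and genes with opposite transcript calls; a few genes this rule takes are not reported here. Exoc6, Mbp, Pdgfra, Hsd17b7, Acsl1, Csf1r, Cx3cr1, Tmem119, P2ry12, C1qc, Cd55, Ctsa, Eno1, Serpinb1a, Bcan, Cdk2, Ifit2, Kcnk1 and Hbegf were added after their values were seen. Members and lists were chosen with earlier results of these data known. Alternatives covered scaling, count filters, DESeq2 1.42.0, limma-voom (limma 3.58.1) with and without quality weights, all 12 libraries, mouse number as a block, Y-linked expression as a covariate, length offsets, nuclear protein-coding genes, each library left out, and RalAB cKO 1 left out together with control 1.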

Additional observations from a re-analysis of the deposited data

Results flagged for a closer look

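Groups of 4 mice were searched for a single library set apart from the other 3 by Dixon's 95% criterion, the gap to the nearest library over the whole range. Of 476 groups looked at, over genes, gene list shares and library measures, 32 were set apart (6.72%), where chance gives about 5%. No explanation of these values was tested.

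RalAB cKO 1 stood apart most often among the mutants. It was lowest for Samd4b (554 CPM, the others 697 to 712), Cebpa (14.6 CPM, the others 21.1 to 22.4), Phgdh (206 CPM, the others 258 to 265) and Grn (260 CPM, the others 409 to 434). The same library was lowest for Pdgfb (7.71 CPM). In summed shares it was lowest for cholesterol efflux genes (0.207%, the others 0.247% to 0.252%) and for tubulin genes (2.17%), and highest for channel and pump genes (0.457%) and for PI3K, Akt and mTOR genes (0.158%). For every one of these 5 genes except Phgdh this library lay on the side of the control mice.

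Among the other mutants, RalAB cKO 2 had the highest share of lineage transcription factors (0.789%). RalAB cKO 3 was highest for Pdia3 (410 CPM) and Mgst3 (18 CPM). RalAB cKO 4 was lowest for Atp1b3 (117 CPM), Pla2g16 (28.8 CPM) and Serpinb1a (2.86 CPM) and for the share of unfolded protein response genes (0.29%).

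Of the controls, control 3 was set apart most often. It was highest for Slc6a11 (273 CPM, the others 147 to 158), Aldoc (180 CPM, the others 124 to 133), Cdkn1a (7.68 CPM, the others 3.13 to 3.63) and the astrocyte share (0.2%, the others 0.114% to 0.123%). It was lowest for Lss (660 CPM), Sept9 (39.1 CPM), the share of Ral pathway genes (0.121%) and the share held by the 10 highest genes (13.1%). Control 1 was lowest for P2ry12 (6.93 CPM), Itgb2 (2.8 CPM) and Elmod1 (10.7 CPM) and highest for the autophagy share (0.224%). Control 2 was highest for Pfkp (107 CPM) and Capg (1.61 CPM). Control 4 was lowest for Cebpa (2.68 CPM) and nearest to the mutants on the first principal component (-31.6).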

How the results depend on the processing

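The 21 alternatives changed the number of called genes more than their direction: 0 genes called both ways were called in opposite directions. Of 173 called genes followed, 157 kept their call in every alternative that held them, and 0 of the followed genes changed sign where called. Most followed genes were picked for a small p or a large change in these data, so this share does not stand for all calls. Of all 2166 calls, 63.3% were kept without RalAB cKO 4, 66.2% with mouse number as a block and 72.1% with length offsets. With DESeq2 99.8% were kept. Against 2166 genes (1115 higher, 1051 lower), quality weights gave 3967 (2066 and 1901) and leaving out control 1 together with RalAB cKO 1 gave 4156 (2166 and 1990). With mouse number as a block the numbers were 785 higher and 684 lower, and 0 transcripts were called. Mouse numbers are names only, and 0 libraries correlated best with the other library of their own number. Leaving out 1 library gave 1404 to 3154 genes, 761 to 1584 of them higher and 643 to 1570 lower, and 70 to 408 transcripts. The single gene with opposite transcript calls became 0 with no count filter, with at least 1 CPM in 4 libraries, with the block and without both first mice, and was 0 to 1 with 1 library left out. Library totals alone put 44.3% of calls on the higher side in place of 51.5%, with a median of -0.1 over all genes. The cause of these changes was not tested. At 10899821 to 15248528 counts per library, most lymphoid and border macrophage markers lay under the count filter. Of the lymphoid list, 1 gene, Cd79b, was called higher with no count filter, by DESeq2, without control 3, without RalAB cKO 1 and without both first mice.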
